A study of Mus musculus with 33 samples.

Results

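The choroid plexus comparison of the deposited splicing tables holds 115 events in 106 genes, out of 549 events in the whole series. Its members are all events of the 5 choroid plexus tables, 1 table for each type of event, with no repeated event among them. RNA was sequenced from choroid plexus of FVB mice, wild type at Dmpk or homozygous for the edited allele named 480, which carries 480 CTG repeats on both copies of the gene. Total RNA was depleted of ribosomal RNA and made into directional libraries. The labels list 3 wild-type and 3 480/480 choroid plexus libraries from separate mice, and the tables hold values for 3 and 2 of them. The tables do not say which 480/480 library is missing. The values are not tied to replicate numbers either, and a library is therefore called by its place in the list of its group. The +/480 choroid plexus libraries are not analysed here. Tibialis anterior (TA), a muscle of the lower leg, and cultured myotubes came from the same mice, and their tables are used only to set the choroid plexus events beside them. Choroid plexus is a dissected tissue, and the cells other than epithelium that a dissection holds were not separated. The tables hold no expression levels, so the tissue could not be checked against its markers, and fewer cells of a type cannot be told apart from less RNA per cell.

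Dmpk is the gene whose CTG repeat, in the part of the transcript after the coding sequence, is expanded in myotonic dystrophy. RNA with expanded CUG repeats binds muscleblind-like (MBNL) proteins, which regulate splicing, and in affected muscle and brain this loss of free MBNL shifts the inclusion of many exons. The choroid plexus is a sheet of ciliated secretory epithelium around a vascular core inside the brain ventricles. It makes cerebrospinal fluid through ion and bicarbonate transport and forms a barrier between blood and that fluid. A skipped exon is either spliced into the transcript or passed over. At an alternative 5′ or 3′ splice site an exon is used in a longer or a shorter form, of mutually exclusive exons 1 is used in place of the other, and a retained intron stays in the transcript.

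Inclusion is the percentage, as the authors computed it for each library, of the form that holds the exon, the longer exon or the intron. Changes are 480/480 minus wild type in percentage points. Every listed event had passed the authors' selection of at least 5 reads on average, a false discovery rate (FDR) of 0.05 or less and a change of 10 points or more, and "rose" and "fell" are used for events that passed it. Values are mean ± SD with n = 3 in wild type and n = 2 in 480/480. With 3 libraries in one group and 2 in the other, the smallest p an exact two-sided permutation test can give is 0.10. For that reason the only p-values and FDRs used are those of the authors' deposited table, and the depth of each value is unknown.

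The sequences of 11 skipped exons are shown because the genes described in the following paragraphs turn on them. Capitals mark TGCT and TGCC, and the same letters with C in place of the leading T, which hold the GC core that MBNL proteins are known to bind, written as DNA on the transcribed strand and with overlaps joined. They are read 5′ to 3′ from GENCODE M21 transcripts on mm10. Pde2a lies at chr7:101461480-101461541, plus strand, Slc4a4 at chr5:89232764-89232860, plus strand and Lrp8 at chr4:107848281-107848403, plus strand. Lrp3 lies at chr7:35211435-35211497, minus strand, Nfix at chr8:84723728-84723850, minus strand and Numb at chr12:83797197-83797343, minus strand. Mark2 lies at chr19:7281798-7281959, minus strand, Opa1 at chr16:29588823-29588876, plus strand and Cep170 at chr1:176761351-176761500, minus strand. Tpd52l1 lies at chr10:31341140-31341178, minus strand and Srsf10 at chr4:135863526-135863576, plus strand.
Pde2a: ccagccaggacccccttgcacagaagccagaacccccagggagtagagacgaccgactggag
Slc4a4: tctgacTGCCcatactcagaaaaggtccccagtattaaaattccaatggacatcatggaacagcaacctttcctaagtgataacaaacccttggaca
Lrp8: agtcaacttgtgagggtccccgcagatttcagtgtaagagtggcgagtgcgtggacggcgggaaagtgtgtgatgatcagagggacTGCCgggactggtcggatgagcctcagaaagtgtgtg
Lrp3: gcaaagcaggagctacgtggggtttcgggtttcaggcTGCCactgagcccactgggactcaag
Nfix: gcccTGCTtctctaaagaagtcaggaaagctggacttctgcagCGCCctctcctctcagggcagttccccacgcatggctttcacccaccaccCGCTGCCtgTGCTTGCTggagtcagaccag
Numb: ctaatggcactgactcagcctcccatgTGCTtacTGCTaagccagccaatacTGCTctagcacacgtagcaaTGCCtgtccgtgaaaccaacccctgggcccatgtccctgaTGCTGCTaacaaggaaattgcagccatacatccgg
Mark2: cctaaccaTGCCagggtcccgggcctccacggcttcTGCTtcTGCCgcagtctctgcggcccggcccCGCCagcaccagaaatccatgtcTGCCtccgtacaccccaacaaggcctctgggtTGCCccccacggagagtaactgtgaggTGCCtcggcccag
Opa1: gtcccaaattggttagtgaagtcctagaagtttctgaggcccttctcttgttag
Cep170: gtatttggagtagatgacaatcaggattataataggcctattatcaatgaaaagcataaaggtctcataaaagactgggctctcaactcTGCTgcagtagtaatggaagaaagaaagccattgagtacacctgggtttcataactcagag
Tpd52l1: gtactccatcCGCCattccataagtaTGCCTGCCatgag
Srsf10: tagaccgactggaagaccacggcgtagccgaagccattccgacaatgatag
Mark2 holds 7 of these motifs in 162 bases, and Numb and Nfix hold 6 each in 147 and 123 bases. Of internal exons of exactly those lengths in protein-coding transcripts of the GENCODE M21 basic set, 89.3%, 86.2% and 82.0% hold at least 1. How many of them hold 6 or 7 was not counted. Tpd52l1 holds 3 motifs in 39 bases, where 31.9% of exons of that length hold 1 or more. Pde2a, Opa1 and Srsf10 hold none.

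Inclusion fell more often than it rose in choroid plexus. Of the 115 events 77 fell (67.0% of the comparison) and 38 rose (33.0%). Among skipped exons 51 of 68 fell (75%, Wilson 95% interval 63.6 to 83.8), and among alternative 3′ splice sites the longer form fell at 15 of 20. Retained introns went the other way more often, with 13 of 21 higher in 480/480. Only 3 events were alternative 5′ splice sites and 3 were mutually exclusive exons. Of all events, 60.9% fell in 480/480 myotubes, 50% in +/480 myotubes and 42% in TA, and of skipped exons 62.5%, 50.7% and 54.1%. Those shares come from tables of selected events, and no test of the difference was made.

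**Figure D1:**
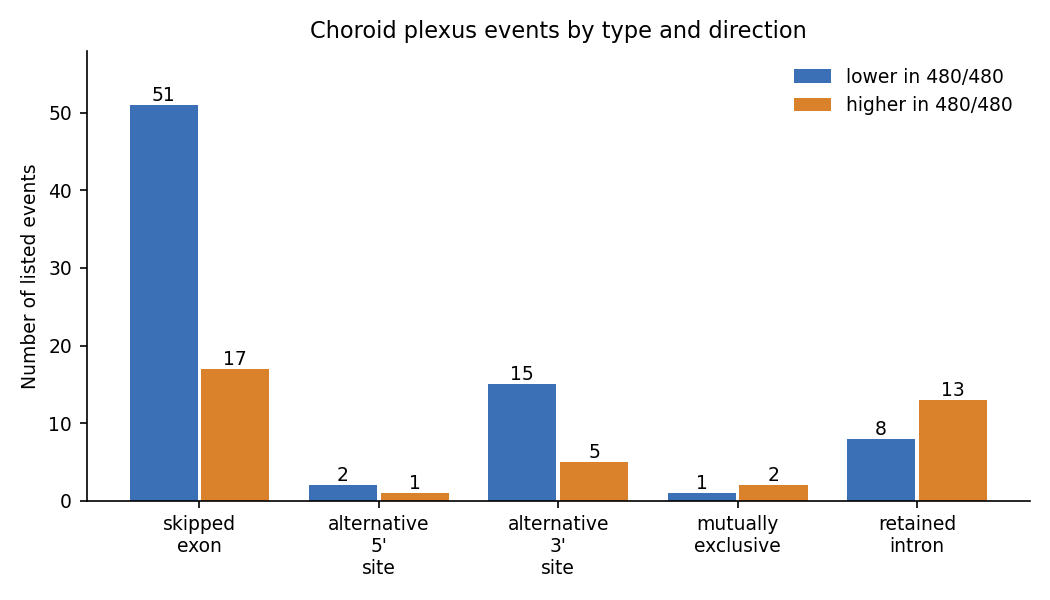
Number of listed choroid plexus events by event type, lower (blue) or higher (orange) in 480/480 than in wild type. Lower events outnumber higher ones among skipped exons (51 against 17) and alternative 3′ splice sites (15 against 5), and higher ones are more frequent among retained introns (13 against 8).

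Much of the fall was a departure from almost full inclusion. The wild-type mean was over 90% at 59 of the 115 events (51.3%), against 18.5% of events in 480/480 myotubes, 27.3% in +/480 myotubes and 25.9% in TA. All 59 fell, as an event above 90% cannot rise by the 10 points the selection asks for. At the other 56 events 38 rose and 18 fell (32.1%, Wilson 95% interval 21.4 to 45.2), against 52.0% that fell among such events of the 480/480 myotubes, 31.3% in +/480 myotubes and 21.7% in TA. The 41 skipped exons with a wild-type mean over 90% make up most of the 51 that fell. Every wild-type library was at 100% in 14 events, and both 480/480 libraries were at 100% in 17.

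**Figure D2:**
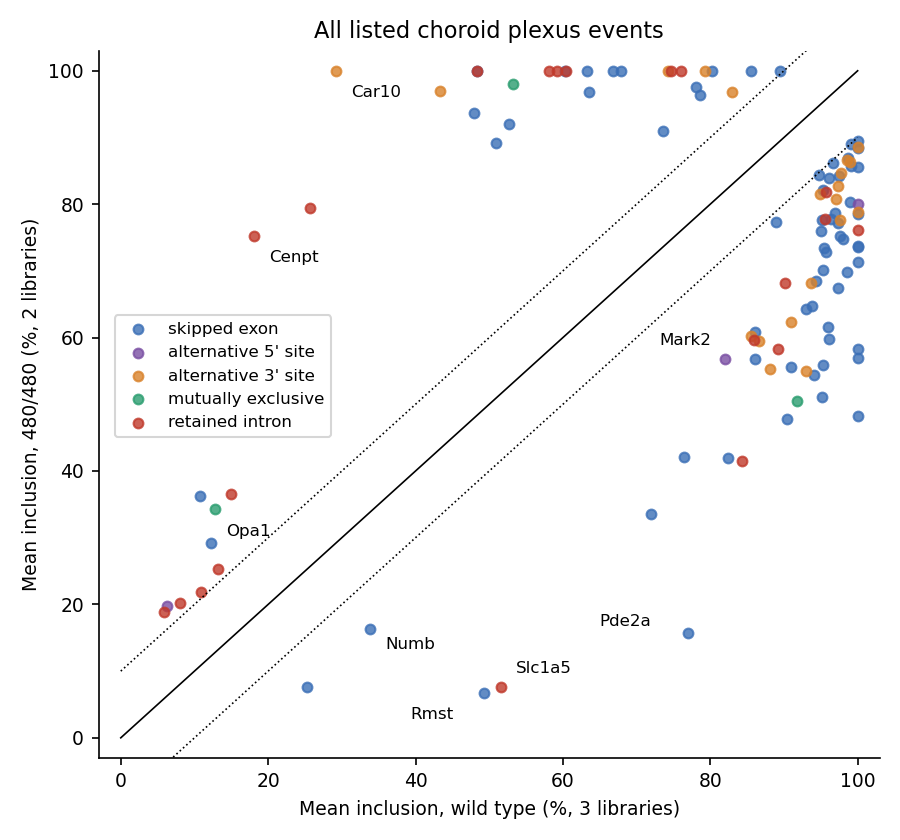
Mean inclusion of all 115 choroid plexus events in wild type (horizontal, 3 libraries) and 480/480 (vertical, 2 libraries), in percent, coloured by event type. The solid line marks equal inclusion and the dotted lines the selection limit of 10 points. Many points stand along the right edge, where wild type is over 90%, and along the top edge, where 480/480 is at 100%.

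The median size of a change was 25.2 points, with a range from 10.1 to 70.8. Wild-type and 480/480 libraries stood apart without overlap at 92 events (80% of those listed), and at 28 events the gap between them was 20 points or more. Among skipped exons this held at 60 of 68, and among retained introns at 13 of 21. Libraries stood apart at 89.7% of events in 480/480 myotubes, 80.9% in +/480 myotubes and 71.6% in TA, where both groups have 3 libraries. The authors' selection favours groups that stand apart, so these counts describe the listed events. The median SD was 6.46 points in wild type and 5.66 in 480/480. Events just inside the selection were Firre, which fell by 10.1 points at 1 exon, and Cfap54, which fell by 10.3. Without the second 480/480 library the changes are -4.93 and, for the other Firre exon, -4.10, and without the first that of Cfap54 is -5.53. The authors' deposited table gives Ogg1 the FDR nearest to the limit, 0.0491, and its change is 0 without the second 480/480 library.

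Phosphodiesterases, which break down the second messengers cyclic AMP and cyclic GMP, had events in opposite directions. Pde2a, which degrades both and is stimulated by cyclic GMP, had the largest skipped-exon change of the comparison. Its 62-base exon was included at 62.2, 68.6 and 100% in the wild-type libraries and at 21.5 and 9.9% in the 480/480 libraries. The lowest wild-type library lay far above both 480/480 libraries, although 1 wild-type library, at 100%, stood apart from its own group. The means were 76.9% ± 20.2 and 15.7% ± 8.20, a change of -61.2 points, and the authors' deposited table gives an FDR of 0.00458. The annotation has this exon in no protein-coding transcript of the gene, in 2 transcripts marked for nonsense-mediated decay and in 2 processed transcripts, while 4 protein-coding transcripts skip it. Pde7a, specific for cyclic AMP, rose at a 177-base exon (chromosome 3, 19241342 to 19241518) from 13, 3 and 16.1% to 34 and 38.5%. Both 480/480 libraries exceeded every wild-type library, and the means were 10.7% ± 6.85 and 36.3% ± 3.18. That exon is annotated in a nonsense-mediated decay transcript and is skipped in 2 protein-coding ones. The same exon is also listed as 1 of a mutually exclusive pair, with means of 12.7% ± 8.88 and 34.3% ± 5.23, so both events share reads.

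Transporters and receptors of the plasma membrane changed at several genes. Slc4a4, an electrogenic sodium bicarbonate cotransporter, rose at a 97-base coding exon from 79.7, 46.6 and 63.6% to 100% in both 480/480 libraries. Every wild-type library was below both 480/480 libraries, by at least 20 points. Its means were 63.3% ± 16.6 and 100% ± 0. Lrp8, an apolipoprotein E and reelin receptor, was the 1 of 105 choroid plexus epithelium genes with an event, beside 0.436% of annotated protein-coding genes. Its 123-base coding exon was included at 58.1, 60.2 and 39.9% in wild type and at 100 and 84.1% in 480/480. The groups were separated by more than 20 points, and the means were 52.7% ± 11.2 and 92.1% ± 11.2. A related receptor gene, Lrp3, moved the other way at a 63-base coding exon. Its wild-type libraries were at 100, 94.2 and 100% and its 480/480 libraries at 62 and 87.6%, with means of 98.1% ± 3.35 and 74.8% ± 18.1. The netrin receptor gene Unc5b, chosen after its values were seen, has the shortest listed exon, of 33 bases. It was at 100, 69.8 and 70.9% in wild type and at 100% in both 480/480 libraries, and the groups touched. Leaving out a library moved 2 of these by over 1.5 times, Lrp3 to -10.5 points without the first 480/480 library and Unc5b to 29.7 points without the first wild-type library.

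Retained introns were listed in further transporter genes. Slc1a5, a neutral amino acid exchanger that carries glutamine, fell at a 71-base intron (chromosome 7, 16795953 to 16796023). Retention was 49.1, 47.6 and 58.1% in wild type and 10.6 and 4.7% in 480/480. No library of one group came within 30 points of the other, the means were 51.6% ± 5.68 and 7.65% ± 4.17, and the authors' deposited table gives an FDR of 1.51e-06. The sodium-activated potassium channel gene Kcnt1 averaged 60.4% ± 34.6 and 100% ± 0, but 1 of its wild-type libraries was at 100% too. Mfsd2b, a sphingosine-1-phosphate transporter known from blood cells, averaged 58.1% ± 37.7 and 100% ± 0, and again 1 wild-type library was at 100%. Without the second wild-type library the Mfsd2b change is 26.3 points in place of 41.9, and without the first 62.9. The list of transporters and channels has 35 entries, of which 29 are name starts. Of its genes 4 had an event, 2 higher and 2 lower, in a comparison in which 67.0% of events fell. The fourth, Trp53i11, matched by the start of its name and is not a channel gene.

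Of 162 junction, polarity and cytoskeleton genes on the list, Mark2 had an event, and of 170 trafficking genes Lrp8 and Numb did. The share among all annotated protein-coding genes was 0.436%. Inf2, Dennd4c and Tpd52l1 are described with Mark2 and Numb but are on neither list. Mark2, a kinase of microtubule-associated proteins that sets epithelial polarity, fell at a 162-base exon. Its wild-type libraries stood at 89.9, 82.3 and 85.9% and its 480/480 libraries at 58.3 and 63.4%. The gap was large against the spread within either group, with means of 86.0% ± 3.80 and 60.9% ± 3.61. In the annotation 6 protein-coding transcripts hold the exon and 6 join its listed neighbours without it. Numb, an endocytic adaptor that restrains Notch, fell at a 147-base exon from 29, 37.1 and 35.5% to 12.8 and 19.9%. The form without the exon was already the more frequent in every wild-type library. Its means were 33.9% ± 4.29 and 16.4% ± 5.02. In the annotation 2 protein-coding transcripts hold the exon and 2 join its listed neighbours without it. Inf2, a formin that assembles and severs actin filaments, rose at a 57-base exon from 36.2, 54.7 and 61.7% to 93.4 and 85%. All 480/480 values exceeded those of wild type, with means of 50.9% ± 13.2 and 89.2% ± 5.94. Dennd4c, an exchange factor for a Rab GTPase of vesicle transport, was chosen after its values were seen. It rose at a 147-base coding exon from 73.6% ± 7.89 to 91.0% ± 4.60, without overlap. Tpd52l1, a member of the tumour protein D52 family, fell at a 39-base coding exon from 87.9, 100 and 100% to 56.8 and 66.4%. Its groups lay more than 20 points apart, and the means were 96.0% ± 6.99 and 61.6% ± 6.79.

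**Figure D3:**
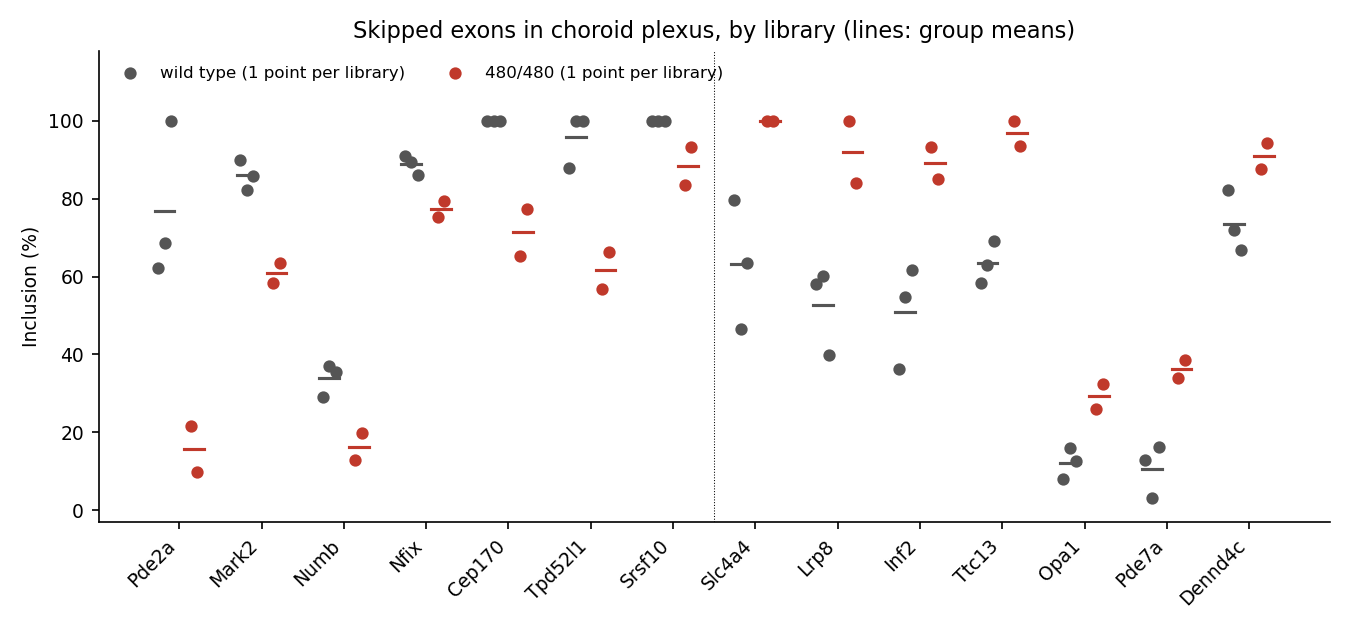
Inclusion in percent of 14 skipped exons in each choroid plexus library, with wild type in grey (3 points), 480/480 in red (2 points) and lines at the group means. The 7 genes left of the dotted line fell and the 7 on its right rose, and in each the 480/480 points lie outside the wild-type range.

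Cilia, centrioles and nuclear anchoring were represented by single events, and of the genes described here Lrrc6 and Cfap99 were chosen after their values were seen. Of the 142 cilia and centrosome genes on the list, 1 had an event, beside 0.436% of annotated protein-coding genes. This was Cfap54, a protein of the central apparatus of motile cilia. It fell from 94.7% ± 3.18 to 84.4% ± 6.79 at a 135-base coding exon, without overlap. Cep170, a protein of the subdistal appendages of the mother centriole, was at 100% in all 3 wild-type libraries and at 65.4 and 77.4% in 480/480. No annotated transcript joins the listed neighbours of this 150-base exon directly. Lrrc6, needed for assembly of the dynein arms that drive cilia, was at 100% in every wild-type library and at 84.9 and 86.2% in 480/480. Both 480/480 libraries were close to each other in this gene. Ttc25, a component of the docking complex of outer dynein arms, fell from 93.0% ± 12.2 to 64.3% ± 12.2, and Cfap99 from 97.6% ± 4.10 to 75.2% ± 22.6. The groups did not overlap in either gene, although the 480/480 libraries of Cfap99 were at 59.2 and 91.2%, far from each other. Without the first, its change is -6.43 points and that of Cfap54 -5.53. The longer 3′ splice-site form of Syne4, a nesprin that links kinesin to the nuclear envelope in epithelial cells, fell from 90.9% ± 15.7 to 62.3% ± 10.7. These 6 fell, in a comparison in which 67.0% of events did, while the centriolar gene Cntln, described below, rose at a 3′ splice site.

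Of 129 RNA-binding and splicing genes on the list, 3 had an event, beside 0.436% of annotated protein-coding genes. The 5 events of these 3 genes fell, in a comparison in which 67.0% of all events and 75% of skipped exons did. Their median change was -25.1 points, beside -16.3 for all choroid plexus events. Prpf39, a component of the U1 small nuclear ribonucleoprotein, accounts for 3 events that overlap and share reads. Its 110-base exon (chromosome 12, 65043768 to 65043877) was included at 69, 78.5 and 68.4% in wild type and at 31.9 and 35.1% in 480/480. The groups lay more than 30 points apart, with means of 72.0% ± 5.67 and 33.5% ± 2.26. It is annotated in a nonsense-mediated decay transcript and skipped in a protein-coding one. The longer 163-base form of that exon fell from 76.5% ± 6.15 to 42.1% ± 3.89, and an alternative 5′ splice site there from 81.9% ± 4.67 to 56.9% ± 5.59. Hnrnpf, which binds G-rich RNA, fell at a 60-base exon of its 5′ UTR from 100% ± 0 to 78.5% ± 5.66. The 51-base coding exon of Srsf10, a splicing repressor that responds to heat shock, was at 100% in every wild-type library and at 83.5 and 93.2% in 480/480, and its change is -6.80 points without the first of these. No muscleblind-like or Celf gene had an event.

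Other genes of RNA metabolism had events as well, and those named here besides Thoc7 were chosen after their values were seen. Thoc7, a subunit of the THO complex of mRNA export, was at 100% in all wild-type libraries and at 41.5 and 72.5% in 480/480, at a 172-base exon that the annotation has only in processed transcripts. Both 480/480 libraries were below wild type but 31 points from each other, and the change is -27.5 points without the lower. The deadenylase complex genes Cnot2 and Cnot6l fell at 3′ splice sites, from 98.5% ± 2.60 to 86.7% ± 4.45 and from 97.8% ± 3.81 to 84.6% ± 10.6. The change of Cnot6l is -5.70 points without the first 480/480 library, that of Cnot2 -8.70 without the second. Nol11, a ribosome biogenesis factor, fell at a 3′ splice site from 97.6% ± 4.21 to 77.6% ± 2.69. Introns of the ribosomal protein genes Rps2 and Rps18 were seldom retained in wild type, with 1.4, 13.3 and 3.1% for Rps2 and 3.2, 13.2 and 7.9% for Rps18. They rose to 13.8 and 23.9% and to 16.6 and 23.7%, without overlap, and without the second 480/480 library the changes are 7.87 and 8.50 points. Reads of ribosomal protein genes can also come from near-identical pseudogenes, so both values are uncertain.

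Transcription and chromatin genes moved both ways. Their list has 67 entries, of which 55 are name starts. Of its genes 8 had an event, 4 higher and 4 lower, in a comparison in which 67.0% of events fell. Brd9, a bromodomain subunit of a SWI/SNF remodelling complex, had the closest wild-type values of these, 88.5, 87.5 and 88.5%, for an exon that is 3 bases longer or shorter at its start. The longer form was at 49 and 61.6% in the 480/480 libraries, far below every wild-type library, with a mean of 55.3% ± 8.91. Nfix, a nuclear factor I gene, fell at a 123-base coding exon from 91, 89.4 and 86.2% to 75.3 and 79.5%. Its groups were close within themselves and did not overlap, with means of 88.9% ± 2.44 and 77.4% ± 2.97. Kmt2c, a histone H3 lysine methyltransferase, was chosen after its values were seen. It rose from 78.6% ± 15.6 to 96.4% ± 5.16, and by 8.75 points when the first wild-type library is left out. Several zinc-finger genes changed, among them Zscan22, which rose from 44.6, 44 and 56.4% to 100% in both 480/480 libraries at a 485-base exon. Zfp746 fell from 97.3% ± 4.73 to 77.2% ± 9.48, with a change of -13.4 points without the first 480/480 library. Zfp655 averaged 86.1% ± 24.1 and 56.9% ± 2.05, and its first wild-type library equalled the first 480/480 library. An intron of Zfp384 rose from 74.7% ± 14.0 to 100% ± 0. For the mutually exclusive pair of Zfp939, the upstream exon rose from 53.2% ± 16.7 to 98.0% ± 2.90. Zfp939 is annotated as a transcribed unprocessed pseudogene, not as a protein-coding gene, and is counted among the 4 that were higher.

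Among introns whose groups did not overlap, retention rose most in Cenpt and Hmgn2. Cenpt, a centromere protein of the inner kinetochore, rose at a 78-base intron from 7.6, 20.7 and 25.9% to 84.4 and 66.2%. The lowest 480/480 library was more than 40 points above the highest wild-type library, with means of 18.1% ± 9.43 and 75.3% ± 12.9. Hmgn2, a nucleosome-binding protein, rose from 7.7, 50.1 and 19.2% to 73.7 and 85.3%. Wild-type values were spread widely here, and still none reached a 480/480 value. Pced1a, Vps11 and Sec11c were chosen after their values were seen. Pced1a rose from 14.9% ± 4.51 to 36.6% ± 4.95 and the sorting complex gene Vps11 from 76.0% ± 14.9 to 100% ± 0. Retention averaged 100% ± 0 and 76.2% ± 20.5 in Sec11c, a subunit of the signal peptidase, with a change of -9.30 points without the first 480/480 library. The 13 introns that rose had a median length of 143 bases and the 8 that fell one of 432 bases, within a range from 71 to 2096. Groups overlapped or touched at 8 of the 21 introns, among them Ntsr2, where wild type was at 16.1, 28.9 and 100% and 480/480 at 100%. Transcripts not yet spliced are also read in total RNA, and their part in these values was not tested.

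The ubiquitin list, of 34 entries with 29 name starts among them, matched 9 genes with 1 event each. Mdm1 matched only by the start of its name and encodes a microtubule-binding protein of centrioles, and without it, a choice made after the data were seen, 6 of 8 events fell and 2 rose. Their median change was -17.9 points, beside -16.3 and 67.0% lower for all choroid plexus events. Xaf1, a zinc-finger protein that antagonises inhibitors of apoptosis, fell from 100, 82.1 and 100% to 40.7 and 68.1% at an 89-base coding exon. Trim34a, a tripartite motif protein, fell from 91.8% ± 14.3 to 50.5% ± 10.8 for 1 exon of a mutually exclusive pair. In both genes the groups did not overlap, by at least 14.0 points in Xaf1. The deubiquitinase gene Otud7b fell at an exon of the 5′ UTR, from 25.2% ± 5.13 to 7.55% ± 2.76. Usp48, another deubiquitinase, rose from 89.4% ± 1.53 to 100% ± 0, while Usp40 averaged 96.9% ± 5.43 and 78.7% ± 22.5 with overlapping libraries. Psma3, a subunit of the proteasome core, fell from 100% ± 0 to 89.5% ± 4.45. Usp48 and Psma3 were chosen after their values were seen. Fbxo17 averaged 86.6% ± 23.2 and 59.6% ± 2.62, with overlapping libraries. Mdm1 fell from 98.9% ± 1.91 to 86.3% ± 11.8. Trim28, a corepressor of zinc-finger proteins, rose at a retained intron from 13.1% ± 3.33 to 25.3% ± 8.84. Without the first 480/480 library the changes of Xaf1, Usp40, Trim28 and Psma3 are -25.9, -2.27, 5.87 and -7.4 points. Without the second that of Mdm1 is -4.30, and without the first wild-type library that of Usp48 is 9.9.

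Of 70 muscle genes known to be mis-spliced in myotonic dystrophy, 2 had an event, and of 60 listed from brain none did. Over the whole annotation 96 of 22028 protein-coding genes (0.436%) had one, whether or not they had the reads to be tested. Besides Nfix this was Opa1, the dynamin of inner mitochondrial membrane fusion, which rose at a 54-base coding exon from 8, 16 and 12.7% to 25.9 and 32.5%. Both 480/480 libraries exceeded the wild-type range, with means of 12.2% ± 4.02 and 29.2% ± 4.67. Skipping remained the more frequent form in every library of both groups. No Dmpk event is listed in choroid plexus. Of the extracellular matrix list and of the markers of endothelial and mural, mesenchymal, immune, and neural or ependymal cells, no gene had an event. A gene without a listed event may have too few reads to be tested, so these counts do not show that splicing was unchanged.

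Events in non-coding RNA genes ran from groups that lay far apart to groups that overlapped. Rmst, a long non-coding RNA associated with neural differentiation, fell at a 219-base exon (chromosome 10, 92082757 to 92082975) from 33.3, 50 and 64.7% to 6.2 and 7.3%. The 480/480 libraries were nearly equal and lay 26 points below the lowest wild-type library. The authors' deposited table gives this exon an FDR of 1.09e-11, the lowest of the comparison. Atad3aos was at 100% in every wild-type library and at 61.6 and 34.8% in 480/480, and Appbp2os fell from 90.4% ± 16.7 to 47.8% ± 3.96. Firre, an X-linked nuclear RNA, was chosen after its values were seen. It fell at both of its listed exons, from 99.0% ± 0.907 to 89.0% ± 7.28 and from 96.7% ± 1.67 to 86.2% ± 9.05. For Gm37494 the same exon is listed with 2 upstream neighbours and moved in opposite directions, falling by 26.5 points with one and rising by 19.6 points with the other. Without the second 480/480 library the former is -4.50 points, and the Firre changes are -4.93 and -4.10. In all, 8 genes had more than 1 event, which together make 17 events that partly share reads.

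Most exons and introns listed in choroid plexus were not listed in muscle, where they may have changed by less than the limits or lacked reads. Of the 115 events 8 (6.96%) lie at a feature that is also listed in a muscle table. Of the 106 choroid plexus genes 13 (12.3%) have any event there, which is 4.59% of the 283 genes with a muscle event. The annotation holds 55536 genes, 22028 of them protein-coding. At 6 of the 8 features the changes had opposite signs, and in all 6 the libraries of the groups did not overlap in either tissue. All 4 shared skipped exons were among these. The selection of 10 points fixed the direction of some of them in 1 tissue. Wild-type means of 98.1% (Lrp3) and 100% (Tmem134) in choroid plexus and 98.6% (Inf2) in myotubes could only fall by that much. That of 3.33% (Slc1a5) in myotubes could only rise. Nfix fell in choroid plexus, as above, while in 480/480 myotubes it rose from 67.1, 75.5 and 71.9% to 93, 86.6 and 89.1%. Wild-type choroid plexus was thus at 88.9% and wild-type myotubes at 71.5% ± 4.21, and the 480/480 means were 77.4% and 89.6% ± 3.23. Lrp3 was at 57.6, 55 and 59.2% in wild-type TA and at 100, 81.3 and 100% in 480/480 TA, against a fall of 23.3 points in choroid plexus. Inf2 was at 98.6% ± 2.37 in wild-type myotubes and at 85.4% ± 2.77 in 480/480 myotubes, and rose by 38.3 points in choroid plexus. Tmem134, annotated as a processed transcript in GENCODE M21, was at 100% in all wild-type choroid plexus libraries and at 84.9 and 62.5% in 480/480. In wild-type myotubes its exon averaged 73.4% ± 25.6, and in +/480 myotubes it was at 100% ± 0. The choroid plexus changes of Tmem134 and Lrp3 are -15.1 points without the second 480/480 library and -10.5 without the first.

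Among the 3 introns shared with muscle, Slc1a5 and Trim28 moved in opposite directions. Retention of the Slc1a5 intron was 3.33% ± 2.89 in wild-type myotubes and 16.2% ± 8.58 in 480/480 myotubes. That range is far below the 51.6% of wild-type choroid plexus and includes the 7.65% of 480/480 choroid plexus. Trim28 retention fell in TA from 16.6% ± 5.10 to 5.57% ± 3.91. The Mfsd2b intron was higher in 480/480 in choroid plexus and in TA, with 71.4% ± 49.6 against 33.6% ± 7.86 in TA, and libraries overlapped in both tissues. The X-linked autophagy gene Wdr45 was lower in choroid plexus, at 93.7% ± 10.9 and 68.3% ± 27.5 with overlapping libraries, and in +/480 myotubes, at 100% ± 0 and 67.9% ± 24.3. Without the first 480/480 choroid plexus library the Trim28 change is 5.87 points, and without the second that of Wdr45 is under 10 points in size. The difference between tissues was not tested for any of these features, and the tissues, which the labels tie to the same mice, are not independent of each other.

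**Figure D4:**
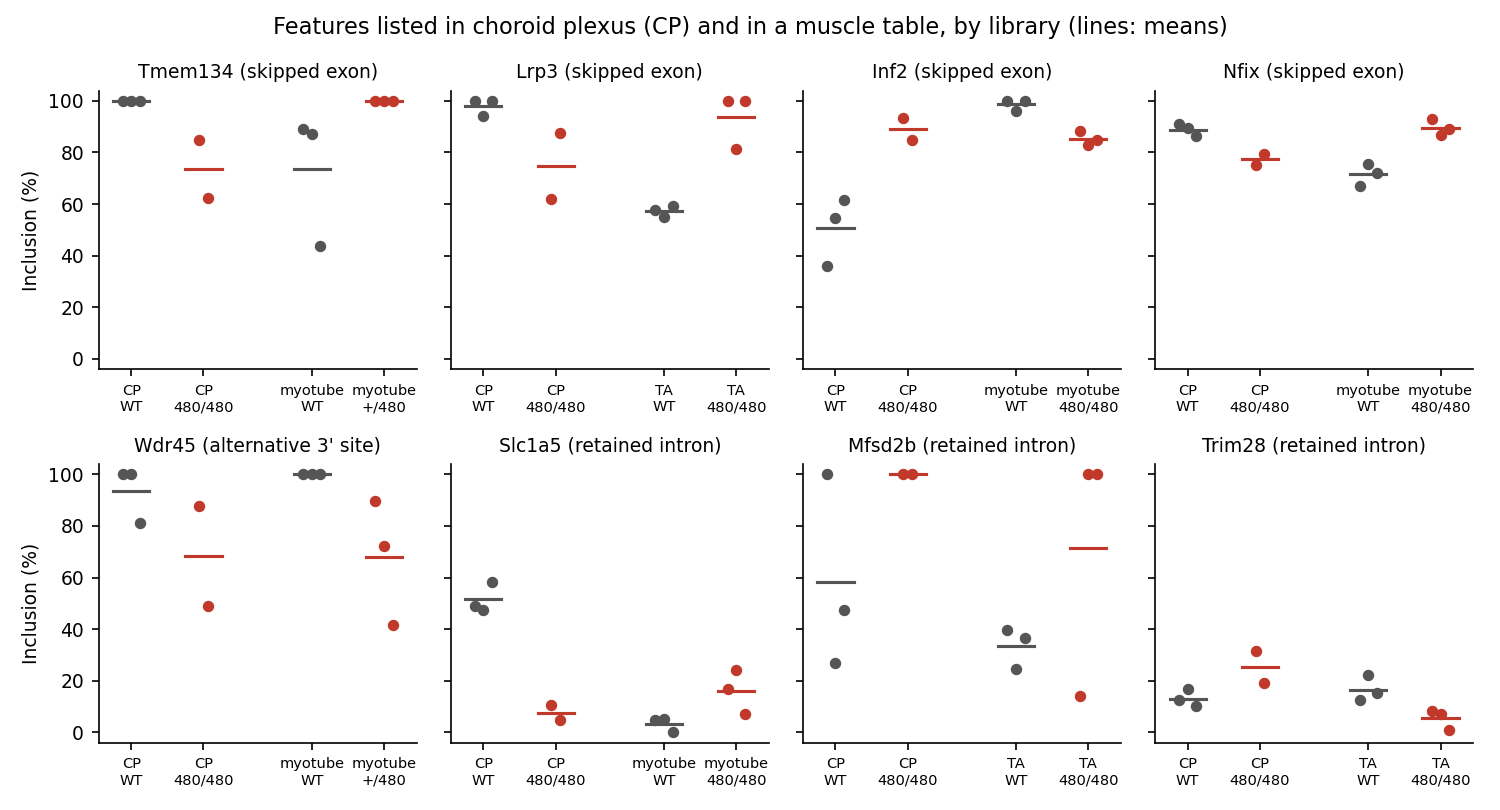
Inclusion in percent, by library, of the 8 features listed in choroid plexus (CP) and in a muscle table, with wild type (WT) in grey, expansion in red and lines at the means. In 6 panels the red points lie above grey in one tissue and below it in the other, and Wdr45 and Mfsd2b move the same way in both.

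The skipped exons of choroid plexus were of middle length and most were coding. The 68 events use 66 different exons with a median length of 115 bases and a range from 33 to 485. Of these, 40 are coding throughout in some annotated transcript, 9 partly coding, 5 in a UTR and 12 in non-coding transcripts. Transcripts marked for nonsense-mediated decay count here, so the Pde2a exon is among the 40. A length that is a multiple of 3, which keeps the reading frame, was found in 24 of the 40 coding exons (60%, Wilson 95% interval 44.6 to 73.7). The share was 83.3% of 132 coding exons in 480/480 myotubes (interval 76.1 to 88.7), 67.4% in +/480 myotubes and 60% in TA. By direction it was 8 of 10 exons that rose and 16 of 30 that fell. Exons of 60 bases or less made up 16.7% in choroid plexus, 29.8% in 480/480 myotubes, 25% in +/480 myotubes and 8.57% in TA. Of the listed exons, 5 are annotated in a nonsense-mediated decay transcript and in no protein-coding one. These are in Pde2a, Prpf39 and Psma3, which fell, and in Pde7a and 1700088E04Rik, which rose. For 28 of the 68 events no annotated transcript joins the listed neighbours of the exon directly. A transcript that skips the exon between other neighbours was not counted.

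The motifs capitalised in the printed exons numbered 1.43 per 100 bases over the 66 exons, 1.48 in those that rose and 1.42 in those that fell. The density was 1.58 in skipped exons of 480/480 myotubes, 1.59 in +/480 myotubes and 1.33 in TA. It was 1.53 in internal exons of 30 to 500 bases in protein-coding transcripts. The flanking introns, where MBNL binding is also known to act, were not searched.

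Alternative 3′ splice sites included a group of closely spaced acceptors. Of the 20 events, 7 have sites at most 8 bases apart, and in 4 of them, in Car10, Hipk2, Cntln and Brd9, the sites are 3 bases apart. The muscle tables list 1 of 6, 2 of 12 and 0 of 10 sites at most 8 bases apart. The start of the longer exon is shown for the 3 coding exons, as the first 30 bases on mm10 from GENCODE M21, with the 3 bases that the shorter form lacks in capitals. Brd9 lies at chr13:73942691-73942720, plus strand, Cntln at chr4:85063178-85063207, plus strand and Hipk2 at chr6:38721568-38721597, minus strand.
Brd9: CAGgcagctctcttgggcagtgaagaccca
Cntln: CAGtgattctgaaacacaaacctttcaaaa
Hipk2: CAGgcctggccaggtggggcccaacagatc
Each begins with CAG, itself the sequence that ends an intron, so the shorter form lacks 1 codon's length. The kinase Hipk2, chosen after its values were seen, fell from 97.2, 94.3 and 93.2% to 81.2 and 81.8%. Both groups were tight and did not overlap. Cntln, a centriolar linker protein, averaged 43.3% ± 37.7 in wild type, with values of 0, 61.6 and 68.4%, and 97.0% ± 4.31 in 480/480. Without the first wild-type library its change is 31.9 in place of 53.6 points. Car10, a carbonic anhydrase-related protein without catalytic activity, had the largest change of all 115 events, at an exon of its 5′ UTR. The longer form was at 29.2, 19.4 and 39.1% in wild type and at 100% in both 480/480 libraries, and the authors' deposited table gives an FDR of 4.21e-08. Ankrd13d, chosen after its values were seen, fell from 100% ± 0 to 78.8% ± 3.25 at sites 8 bases apart.

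The 480/480 libraries differed from each other by a median of 8 points and by up to 47.7 points, in Trp53i11. The difference was over 20 points at 20 events, and the wild-type range was over 20 points at 34. Among the 77 events that fell, the first 480/480 library was the lower at 49 and the second at 28. Among the 38 that rose, it was the higher at 10, the second at 11, and both were equal at 17. With the first left out, 16 of the 115 changes drop under 10 points, and with the second left out 13 do. Nfix is among the first 16, at -9.37 points. Trp53i11 averaged 92.9% ± 12.2 and 55.0% ± 33.7 with touching libraries, and its change is -14.1 points without the first and -61.8 without the second.

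On chromosome 7, which holds Dmpk (19083849 to 19093821), lie 16.5% of choroid plexus events, against 14.0% in 480/480 myotubes, 13.6% in +/480 myotubes and 17.3% in TA. Counted by gene, where a gene with several events counts once, 18 of the 106 lie there (17.0%). The shares were 8.88% in 480/480 myotubes, 9.09% in +/480 myotubes and 10.1% in TA. In the annotation 8.49% of all genes and 9.18% of protein-coding genes lie there, and 96 of the 106 genes are protein-coding. Within 30 Mb of Dmpk lie 14 of the 106 genes (13.2%), against 5.92, 4.55 and 7.25% in the muscle comparisons. Of all annotated genes 3.86% do, and the share of protein-coding ones was not counted. This window was chosen after the values were seen. The genes include Slc1a5, Trim28, Lrp3, Zscan22 and Zfp939 described above, and Gm45844, which fell from 95.2% ± 8.31 to 51.2% ± 9.26 at a 228-base coding exon. Pde2a, Trim34a and Mrvi1 lie more than 80 Mb away on the same chromosome. Mrvi1, a substrate of cyclic GMP-dependent protein kinase, was at 100% in every wild-type library and at 43.9 and 72.8% in 480/480, with a change of -27.2 points without the first. Whether sequence near the edited gene differs between the groups beyond the repeat was not tested. Without the chromosome 7 events, 66.7% of the other 96 events fell.

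**Figure D5:**
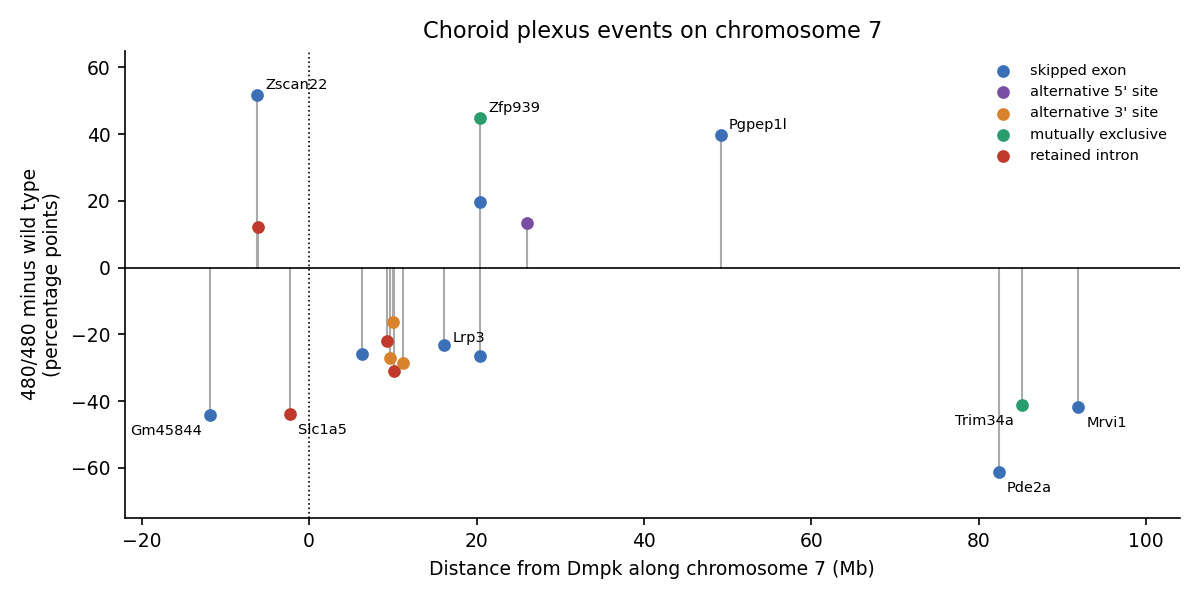
Change in inclusion (480/480 minus wild type, percentage points) of the 19 choroid plexus events on chromosome 7 by their distance from Dmpk in Mb. Distances run from the midpoint of Dmpk to that of the event. Dots are coloured by event type, with the dotted line at Dmpk. Most dots lie within 30 Mb of the gene, with Pgpep1l, Pde2a, Trim34a and Mrvi1 further out.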

How the data were processed

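Per the submitters' processing notes, read quality control used FastQC, and STAR aligned the reads to mm10 (no versions named). Which program called the events is not given in the sources. Per the file headers, the authors' limits for an event were 5 reads on average, an FDR of 0.05 and an inclusion difference of 0.1 in either direction. They deposited inclusion per library as a fraction, a p-value and FDR per event, and the difference of means as a score of wild type minus 480/480.

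Fractions were multiplied to percentages, and changes were recomputed as 480/480 minus wild type. All 115 lay within 0.1 points of the deposited difference. No model was fitted and no p-value was added. Inclusion values have no counts here, so depth is unknown. Exons came from GENCODE M21, and all 106 gene IDs matched a symbol. Shared features were matched by gene, type, start and end. Wilson intervals (95%) describe listed events, not mice. Calculations were tested on simulated data.

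The members, the 17 gene lists and the comparisons were chosen with earlier results of these data known. Named genes were those of the 30 largest skipped exons, counting each gene once, the 6 largest events of every other type, list members (up to 6 for the broad lists) and shared features. Others were chosen after their values were seen. Alternatives were a stricter FDR or change, 1 event per gene, no groups at 0 or 100%, and leaving out each library. Software was Python 3.11.15 with SciPy 1.17.1, NumPy 2.4.6 and, for figures, matplotlib 3.10.9.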

Additional observations from a re-analysis of the deposited data

Results flagged for a closer look

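At 5 features every 480/480 library lay on one side of all wild-type libraries in choroid plexus and on the other side in a muscle tissue. The difference between tissues was not tested. In choroid plexus the Lrp3 exon fell by 23.3 points (TA change 36.5 points) and the Nfix exon fell by 11.5 points (480/480 myotube change 18.1 points). The Inf2 exon rose by 38.3 points in choroid plexus, and in 480/480 myotubes it fell by 13.3 points. Retention of the Slc1a5 intron fell by 43.95 points in choroid plexus and rose by 12.8 points in 480/480 myotubes. Trim28 retention rose by 12.1 points in choroid plexus, and in TA it fell by 11.1 points. The selection of 10 points fixed the direction of Lrp3 in choroid plexus and of Inf2 and Slc1a5 in myotubes. Without the first 480/480 choroid plexus library the choroid plexus changes of Nfix and Trim28 are -9.37 and 5.87 points. Groups of 3 and 2 libraries are too small to look for single libraries that stand apart.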

How the results depend on the processing

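The share of events that fell was between 63.6% and 69.1% with any single library left out, and 66.0% with 1 event per gene. It was 75.0% without events in which a group was at 0 or 100% in every library. With an FDR of 0.01 or less, 47 events were left, 14 genes of the lists had an event in place of 33, and the groups stood apart at 91.5% of events. With that limit on choroid plexus and muscle, 0 features changed in opposite directions in place of 6, and with it on choroid plexus alone, added after the data were seen, 2. With a change of 20 points or more, 72 events and 20 list genes were left, with 2 opposite features where the limit holds for muscle too and 4 where it holds for choroid plexus alone. With an SD under 10 points in both groups, a choice made after the data were seen, 55 events were left, and the groups stood apart at 96.4%. Small SDs at events selected for a change of 10 points leave little room for overlap, so that share was largely fixed by the choice. Leaving out a single library and keeping changes of 10 points or more, the groups stood apart at 85.8% to 92.9% of the fewer events left, or 92 to 98 events in place of 92. A library left out can remove an overlap but cannot add one. Between 99 and 113 events kept their direction at 10 points or more. No change reversed its sign, but that of Ogg1 was 0 without the second 480/480 library. The other shares stayed within the Wilson interval of the values given, and the count of opposite features matched with the same flanking exons within 1.5 times. The median change moved by less than the median, over events, of the larger group SD. It was 33.1 points with a change of 20 points or more and 31.35 without the second 480/480 library. Keeping duplicate rows changed nothing, as there were none. No paired analysis was possible because library values come without replicate numbers. Introns were not searched for motifs, as their sequence was not used. With 1 480/480 library left there is no spread within that group, and depth behind each value is unknown.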
